A study of Mus musculus with 8 samples.

Results

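The cytosolic ribosomal protein genes of mouse liver were followed through 2 internal days. Members were taken by symbol: protein-coding genes named Rpl or Rps with a digit, together with Rplp0, Rplp1, Rplp2 and Rpsa, and without pseudogenes and the S6 kinase genes (Rps6k). The rule gave 88 genes, and 81 of them, 48 with large-subunit and 33 with small-subunit names, had at least 20 reads in at least 2 libraries, out of 10816 named genes that did. No measured level other than this read minimum entered the choice.

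The livers came from wild-type C57/BL6 mice held in 12 h of light and 12 h of darkness for a week and then moved to complete darkness, a day before collection. PolyA RNA was sequenced at 8 circadian times (CT, hours of the internal day), 6 h apart, from CT23 to CT65. Each library is 1 pool of 3 animals, no time has a replicate, and sex and age are not given. Each internal phase was sampled on both days: CT23 and CT47 (the CT23 phase, late subjective night), CT29 and CT53 (CT5, mid-day), CT35 and CT59 (CT11, late day), and CT41 and CT65 (CT17, mid-night). In whole liver, fewer cells of a type and less RNA per cell cannot be told apart.

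The ribosome of the cytosol is built from a large (60S) and a small (40S) subunit, and each of its proteins is made, with few exceptions, from a single active gene. These genes left many processed pseudogenes behind, so that reads from their short, abundant mRNAs can match several places in the genome. Their mRNAs typically begin with a C followed by a run of pyrimidines, the TOP motif (terminal oligopyrimidine), through which mTOR signalling and the protein LARP1 control their translation. In liver the making of ribosomes and the translation of TOP mRNAs are known to follow feeding and the daily cycle.

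The sequence around annotated start sites is shown because the TOP motif is defined there. Below are 15 bases on either side of the RefSeq start (GRCm38.p6, gene strand, 5′ to 3′, the start being base 16), for 3 large- and 3 small-subunit members among those of highest level with an entry in the table. Added to these, after their values were seen, are Rpl13a, the next large-subunit member with an entry, and Rps9 and Rpl27, which had the smallest p-values in introns and in exons. Capitals mark the longest run of C and T that begins with C.
Rpl41, chr10:128549154-128549183, minus strand: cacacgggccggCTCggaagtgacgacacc
Rpl4, chr9:64173372-64173401, plus strand: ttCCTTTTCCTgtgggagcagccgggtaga
Rplp0, chr5:115559452-115559481, plus strand: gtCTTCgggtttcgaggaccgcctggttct
Rpl13a, chr7:45128731-45128760, minus strand: gaaaccctgcgacaagaCCTCCTCCTTTCC
Rpl27, chr11:101442230-101442259, plus strand: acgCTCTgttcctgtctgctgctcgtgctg
Rps26, chr10:128626492-128626521, minus strand: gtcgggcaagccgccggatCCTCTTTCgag
Rps15, chr10:80292416-80292445, plus strand: CCCggcagagctcgcgataactgcgcaagc
Rps2, chr17:24720048-24720077, plus strand: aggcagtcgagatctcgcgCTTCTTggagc
Rps9, chr7:3704026-3704055, plus strand: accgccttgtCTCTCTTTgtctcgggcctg
Within the window the run held 13 bases in Rpl13a, 9 in Rpl4, 8 in both Rps26 and Rps9, and 3 in Rpl41 and Rps15. In Rpl13a and Rps15 it touches an edge of the window and may go on beyond it. The marked run began before the annotated start in Rpl4 and after it in Rps26 and Rpl13a. In none of the 9 windows did it begin exactly there. Of 62 tested members with a RefSeq promoter, 26 (41.9%) held such a run of at least 8 bases in the 30-base window. In 8501 genes tested the share was 12.2%. A C exactly at the annotated start, followed by at least 4 pyrimidines, was found in 14 of these members (22.6%) and in 3.06% of genes tested. The 300 bases of each promoter, 250 before and 50 after the start, were searched on either strand. The ETS-type motif CCGGAAG was present in 40.3% of the tested members and 20.6% of genes tested. The E-box CACGTG, the site bound by the clock activators, was present in 9.68% and 12.1%. These matches describe letters and no factor was measured at them.

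The deposited tables gave each transcript a lower and an upper value, named min and max, in reads scaled to transcript length and library size (RPKM). The sources used here do not say what separates them. In nearly all transcripts checked the lower value was a whole number of reads after scaling, so the reads behind it could be recovered. The lower value was used unless stated. The reads that the values were scaled to numbered 11695288 to 13877347 in 7 libraries and 22881592 in CT35, and the members held 23140 to 32639 reads in the 7 and 85939 in CT35. CT35 therefore stands apart in depth, its junction file is also labelled in a different way from the other 7. Liver identity was checked on 5 hepatocyte markers, all high (summed lower value 41259 to 68638 RPKM). Of 24 markers of other cell types, none was listed at 0 in all libraries, and their summed levels were 56.5 to 93.3 for Kupffer cells (5 genes), 43 to 62.6 for sinusoidal endothelium (4), 47.7 to 67.6 for stellate cells (4), 3.42 to 10.8 for bile duct (4), 1.57 to 3.08 for lymphocytes and neutrophils (4) and 0.203 to 0.795 for proliferating cells (3).

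The acidic stalk of the large subunit, which recruits the elongation factors, was present at unequal levels. Rplp0, its base, had lower values of 131 in CT23, 112 in CT29, 332 in CT35, 156 in CT41, 171 in CT47, 156 in CT53, 137 in CT59 and 104 in CT65 RPKM. Rplp1 ran from 22.8 to 117 RPKM with a median of 37.4, and Rplp2 from 12.2 to 23.6 with a median of 14.2. CT35 was the highest library for Rplp0 and Rplp1, above all others by a wide margin, while CT41 was the highest for Rplp2. The upper values were 187, 69.9 and 47.6 RPKM on average for Rplp0, Rplp1 and Rplp2, so that the order of the 3 was kept and the distance between them shrank.

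Among the other large-subunit members, Rpl41, which encodes the shortest ribosomal protein, had a mean lower value of 203 RPKM, followed by Rpl4 (186), which lines the exit tunnel, Rpl21 (156) and Rpl13a (133). Rpl4 lay between 150.2 and 262 RPKM over the 8 libraries, Rpl21 between 116 and 179, and Rpl41 between 131 and 474. The 474 RPKM of Rpl41 was its CT35 value. Rpl41, Rpl4 and Rpl21 therefore overlapped in range, and their order cannot be read beyond the spread between libraries. The lowest large-subunit members were Rpl31 (2.58), Rpl37 (2.72) and Rpl5 (4.47). Rpl5 binds the 5S rRNA together with Rpl11, which stood at 21.2 RPKM.

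In the small subunit, Rps26, a protein of the mRNA exit channel, had the highest mean lower value of all members (340.1 RPKM). Its libraries read 347 in CT23, 207 in CT29, 373 in CT35, 407 in CT41, 337 in CT47, 401 in CT53, 339 in CT59 and 310.4 in CT65. CT29 was low for it and CT41 and CT53 were high. Rps15 followed (181), then Rps14 (119) and Rps2 (101), and Rps4x stood at 92.2. The lowest were Rps13 (2.51), Rps27a, which encodes a ribosomal protein fused to ubiquitin (3.62), and Rps23rg1, a retrogene of Rps23 (1.57). The ribosome takes up its proteins in equal numbers, apart from those of the stalk. The mean lower value spanned 217-fold over the 81 genes around a median of 24.9 RPKM, and 75 members lay above the median of all genes tested (5.97 RPKM). The median was 37.8 RPKM for small-subunit and 21.4 for large-subunit names, and by the upper value it was 79.9 and 73.3.

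**Figure D1:**
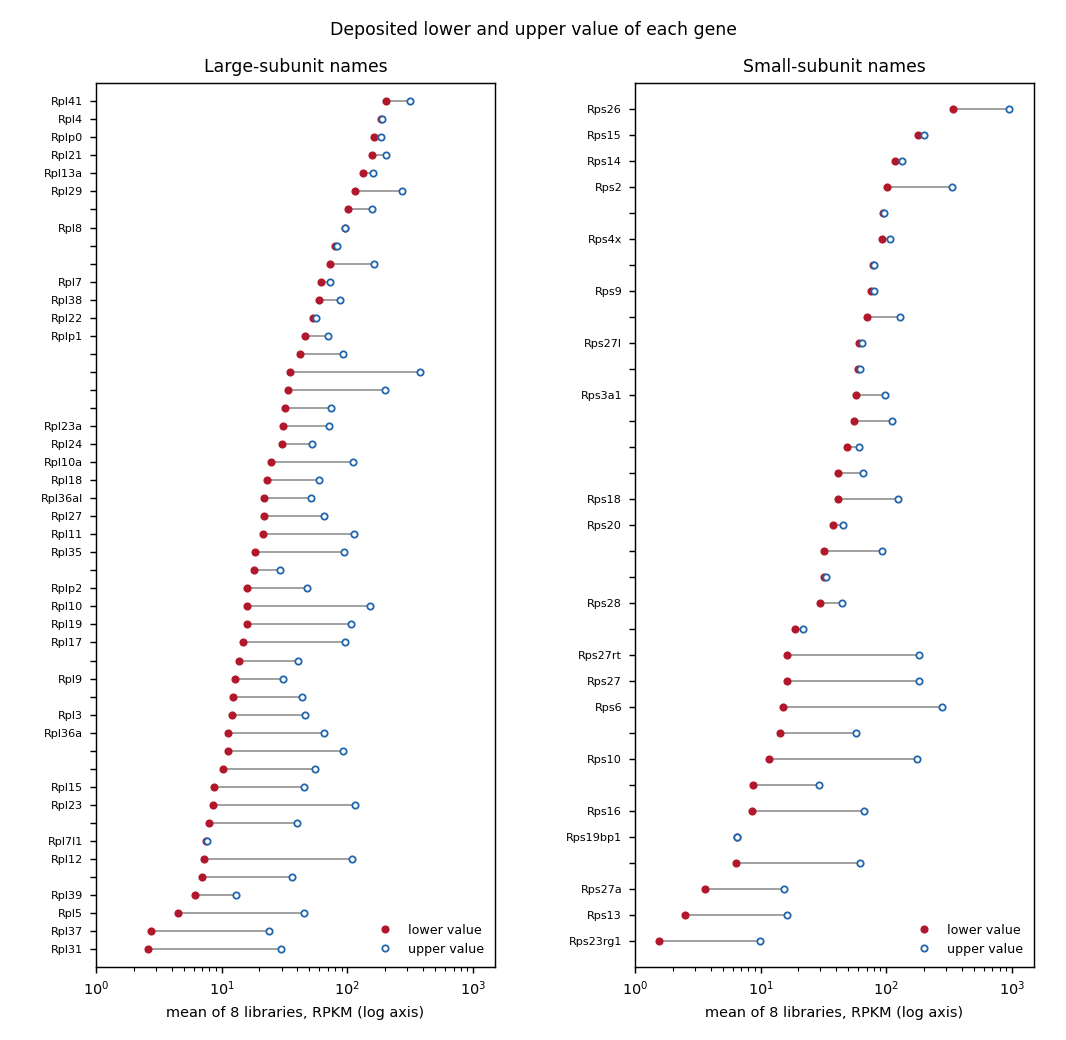
Mean over 8 libraries of the deposited lower (filled) and upper (open) value of each ribosomal protein gene, in RPKM on a log axis, with large-subunit names on the left and small-subunit names on the right and labels at some of the genes described in the text. The 2 values nearly coincide for Rpl4 and Rpl8 and lie far apart for Rps6, Rps10, Rpl12 and Rpl31.

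Paralogs of ribosomal proteins that are known from other tissues were at or near 0. Rpl3l, the muscle form of Rpl3, reached at most 0.245 RPKM (3 reads), and Rpl10l and Rpl39l, known from testis, were listed at 0 in all 8 libraries, while Rpl3 averaged 12.1 RPKM. Rpl22l1 ran from 0.337 to 1.28 RPKM against 41.8 to 79.1 for Rpl22, with no overlap. Rpl7l1 ran from 6.0 to 10.1 against 43.4 to 114 for Rpl7. The X-linked gene Rps4x ran from 68.5 to 136 RPKM. Other pairs did not follow the order of parent above paralog. Rps27l, a p53-responsive paralog, had 61.2 RPKM by the lower value against 16.2 for Rps27, and by the upper value the order turned (63.9 against 181). Rpl36al and Rpl36a stood at 21.8 and 11.3 by the lower and at 51 and 65.5 by the upper value. Rpl39 averaged 6.19 RPKM.

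The 7 genes that missed the read minimum were Rpl3l, Rpl10l, Rpl22l1, Rpl32l, Rpl39l, Rps23 and Rps29. Rps23 and Rps29 are core proteins of the small subunit, and their lower values were 1.11 to 2.52 and 1.31 to 3.18 RPKM, while the upper values reached 53.3 and 22.2. Rps27 and Rps27rt are listed at the same place (chr3:90016590-90017570 and chr3:90016590-90017569, mm9) and hold the same reads. They are 1 measurement under 2 names, and each count of members below that includes both is 1 higher than the number of separate measurements. Rps19bp1 fits the naming rule but encodes a binding partner of Rps19 and no ribosomal protein.

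The gap between the lower and the upper value was a feature of these genes. The upper value was 2.38 times the lower one at the median over members and 1.0 times over all genes tested, and it was at least 2 times in 48 members (59.3%) against 3.08% of genes tested. The widest gaps were those of Rps6, the substrate of the S6 kinases (18.4 times), Rps10 (15.1), Rpl12 (15.1), Rpl23 (13.5), Rpl31 (11.6) and Rps27rt (11.2). Rps6 averaged 15 RPKM by the lower and 276 by the upper value. Rps19bp1 and Rpl8 were among the narrowest, with 1.0 times each, and 13 members stayed under 1.1 times, as did 92.6% of genes tested. Ranks by the lower and by the upper mean had a Spearman rho of 0.65 over the 81 genes.

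What the genes with wide gaps share was looked for in their sequence. Each member's GENCODE M21 transcripts were cut into stretches of 50 bases, and the share also found in transcripts of other genes, pseudogenes included, was counted. It ranged from 0% to 98.6% over 80 members, with a median of 50.2%. In the 13 members with a share under 25% the gap had a median of 1.04 times and a highest value of 2.09. In the 51 members between 25% and 75% the median was 2.58, and in the 16 above it was 6.6 (range 1.21 to 18.4). Over genes the share and the part of the upper value missing from the lower one had a Pearson r of 0.64 and a Spearman rho of 0.60 (n = 80 genes, which share the same libraries and are not independent replicates). Rpl23 lay off this relation, with 28.1% shared stretches and a gap of 13.5 times, and so did Rpl13a, with 77.2% and 1.21 times. Rpl21 and Rpl29, with 64 and 81 pseudogenes that share a stretch, had gaps of 1.31 and 2.37 times.

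**Figure D2:**
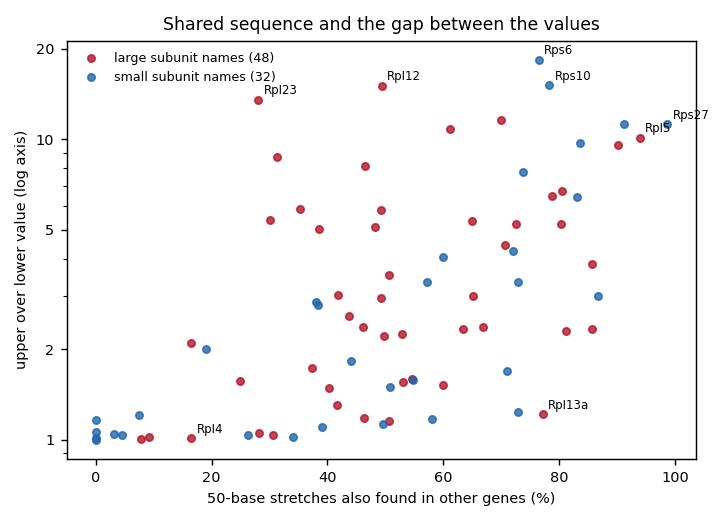
Share of 50-base stretches of each ribosomal protein gene that also occur in transcripts of other genes (x axis, percent) against the ratio of its upper to its lower value (y axis, log scale), 1 point per gene. Genes with few shared stretches, such as Rpl4, lie near a ratio of 1, and Rps6, Rps10 and Rps27 lie at the upper right.

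Across the 8 times the summed level of the members differed most in 1 library, CT35. Their summed lower value was 3423 RPKM in CT23, 3128 in CT29, 6264 in CT35, 3744 in CT41, 4181 in CT47, 3682 in CT53, 3537 in CT59 and 2962 in CT65. CT35 was thus 1.77 times the median of the other 7, which among themselves spanned 1.41-fold. By the upper value CT35 was 1.61 times the others, and by reads across splice junctions 1.56 times. The junction ratio of single genes had a median of 1.34 over members and 1.01 over all genes with enough junction reads. CT59, the other library of the CT11 phase, lay within the range of the other 6.

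Gene by gene, the deviation from each gene's own mean on the log2(RPKM + 0.5) scale had a median of 0.58 in CT35 (quartiles 0.18 and 0.96), 0.21 in CT47, between -0.14 and -0.0080 in CT23, CT41, CT53 and CT59, -0.24 in CT29 and -0.30 in CT65. Over all genes tested the medians ran from -0.15 in CT65 to 0.093 in CT35. In both subunits CT35 had the highest and CT65 the lowest median. In CT35 the median was 0.55 for large- and 0.59 for small-subunit names, and in CT65 -0.28 and -0.33. CT35 was the highest of the 8 libraries for 51 of 81 members, and for 28.7% of all genes tested, and it was at least 1.5 times the median of the others for 41 members against 17.9% of genes. After TMM rescaling, which brings the median of all genes to within 0.01 of 0 in every library, the members' median was 0.47 in CT35, 0.15 in CT47, -0.21 in CT29 and -0.15 in CT65.

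**Figure D3:**
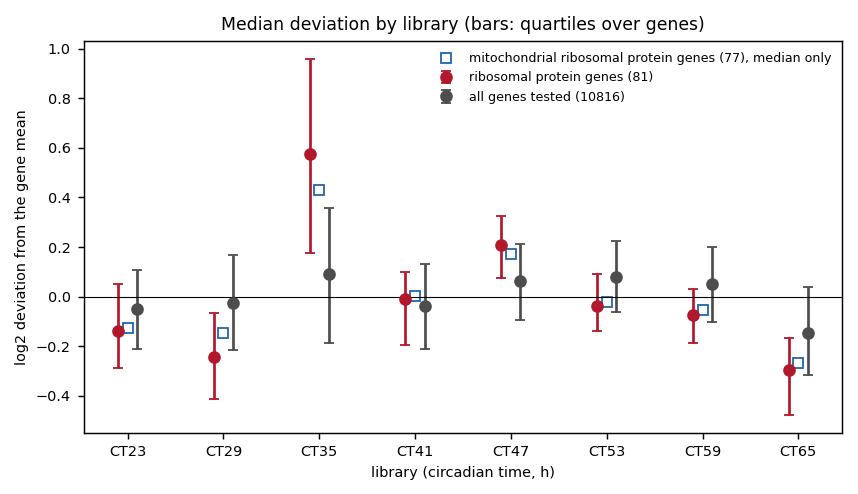
Median log2 deviation from the gene mean in each library (points) with quartiles over genes (bars) for the 81 ribosomal protein genes and all 10816 genes tested, and the median alone for 77 mitochondrial ribosomal protein genes. The ribosomal protein genes reach 0.58 in CT35, and in the other libraries their medians lie between -0.30 and 0.21.

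Several properties of the CT35 library moved with these levels. Its depth was 22881592 reads against at most 13877347, and its hepatocyte marker sum was 68638 RPKM against 41259 to 56929.7. Its sums for sinusoidal endothelium (43) and for lymphocytes and neutrophils (1.57) were the lowest of the 8. These sums did not speak for each marker. In CT35 Alb was 1.75 times the median of the other libraries, Ttr 1.28, Tat 1.42, Cps1 1.19 and Apoa1 0.906 times. Clec4g was 0.663 times, while the other endothelial markers Stab2 (1.12), Pecam1 (1.06) and Kdr (1.16) were above that median. Of the lymphocyte and neutrophil markers, Cd79a was 0.359 times and Ptprc 0.944 times. Cd3e (0.213 RPKM) and S100a8 (0.3345 RPKM), which missed the read minimum, were not lowest in CT35. Short transcripts of all kinds were also high in CT35. The median deviation of all genes went from 0.29 for transcripts of up to 400 bases to 0.0043 for those over 2500 bases. Within 400 to 700 bases, which holds 38 members, the median was 0.49 for members and 0.21 for all genes of that length. Their part in the result was not tested.

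**Figure D4:**
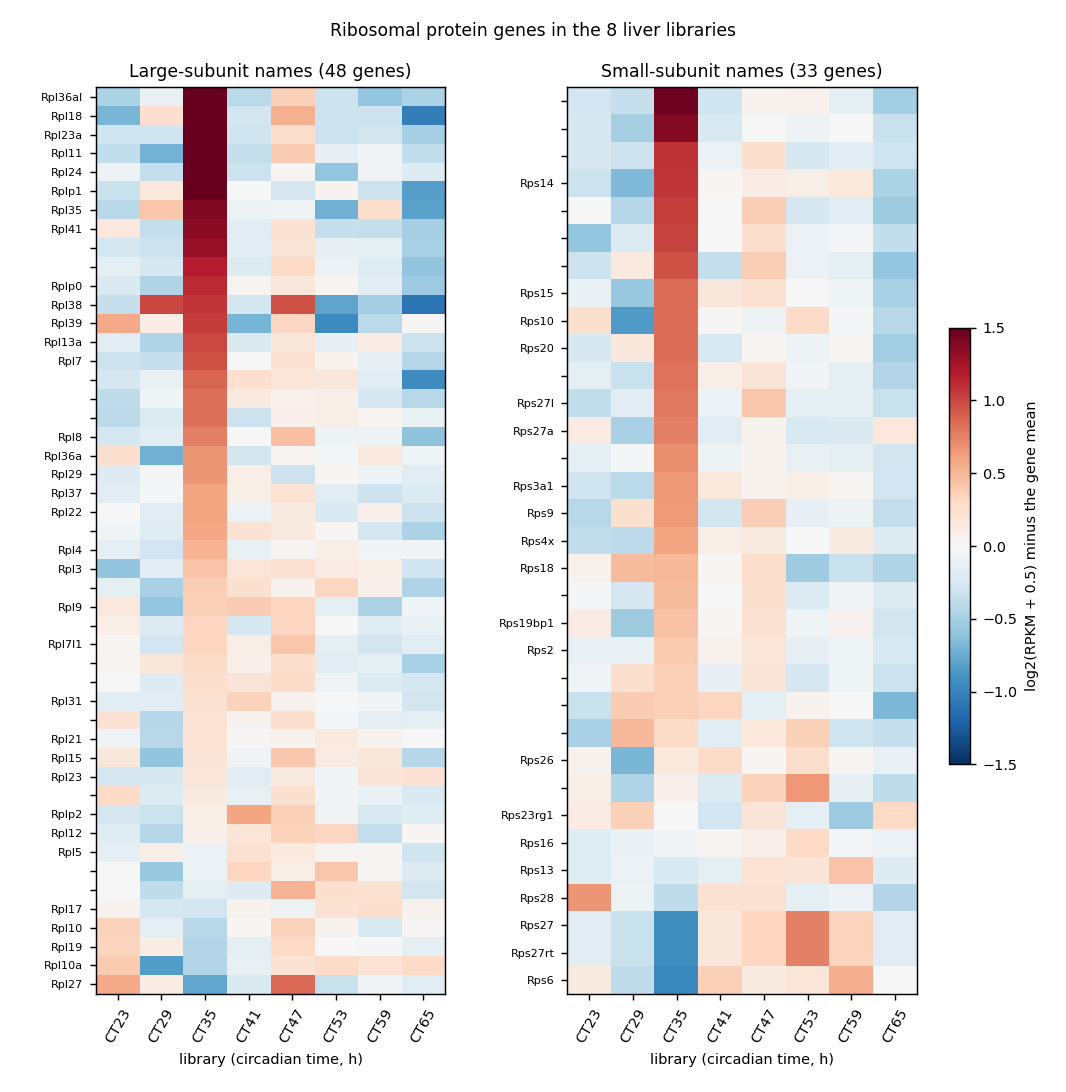
Deviation of each ribosomal protein gene from its own mean, as log2(RPKM + 0.5), in the 8 libraries (columns), with genes sorted by their value in CT35, colours ending at 1.5 on either side, and names at some of the genes described in the text. CT35 is the darkest column for most genes, and at the foot of both panels Rpl27, Rpl10a, Rps6 and Rps27 are low in it.

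The members differed among themselves in CT35. The largest ratios of CT35 to the median of the other libraries were those of Rpl36al (5.49 times), Rpl18 (4.56), Rpl23a (4.11) and Rpl11 (4.02). Rplp1 was 3.43 times and Rplp0 2.42 times the others. CT35 was instead the lowest library for 8 members (background 18.7%): Rpl10, Rpl17, Rpl19, Rpl27, Rps6, Rps13 and the shared reads of Rps27 and Rps27rt. For 5 of these, Rpl19, Rps6, Rps13, Rps27 and Rps27rt, CT35 was lowest by the lower value and highest by the upper one, a pattern of 0.12% of all genes tested. Rps6 had lower values of 15.9, 10.9, 7.11, 18.6, 15.8, 16.4, 21.2 and 14.3 RPKM from CT23 to CT65 in order of time, and upper values of 235, 215, 322, 274, 296, 289, 313 and 264. By the upper value CT35 was highest for 65 of 81 members (background 29.3%), and only Rpl27 was lowest there by both values.

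The ratio of CT35 to the other libraries by the lower value was smaller where the gap between the values was wide. Members whose upper value was under 2 times the lower one had CT35 as their highest library in 12 of 13 (gap under 1.1) and 18 of 20 cases, with median ratios of 1.79 and 2.17. With gaps of 2 to 5 times it was 14 of 22 (median ratio 1.4), and with gaps of at least 5 times 7 of 26 (1.11). By the upper value the median ratios of the 4 classes were 1.84, 2.08, 1.86 and 1.76. Rpl8, whose lower and upper values are nearly equal, had 156 RPKM in CT35 against 60.8 to 127 in the other libraries.

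Junction reads, counted on spliced fragments alone, gave a second view of the same genes. They are given as counts scaled to library size after TMM normalization (CPM). CT35 was the highest library for 38 of 76 members with enough junction reads (background 21.4%) and the lowest for 14 (background 20%). Rpl41 had 848 junction CPM in CT35 and 60.5 to 97.9 elsewhere, a difference of 12 times that exceeded the 3.25 times of its exons. In 3 members, Rpl23a, Rps2 and Rps3a1, CT35 was the highest library by exons and the lowest by junctions. The share of all genes with this pattern was not counted, so the 3 are given as examples only. Rpl23a, which lies at the mouth of the exit tunnel, had 88.6 RPKM in CT35 against 18.7 to 31.9, and 8.99 junction CPM against 16.4 to 28.7. Over the 76 members the CT35 ratio by exons and by junctions had a Spearman rho of 0.69, a description across genes that share the same library.

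**Figure D5:**
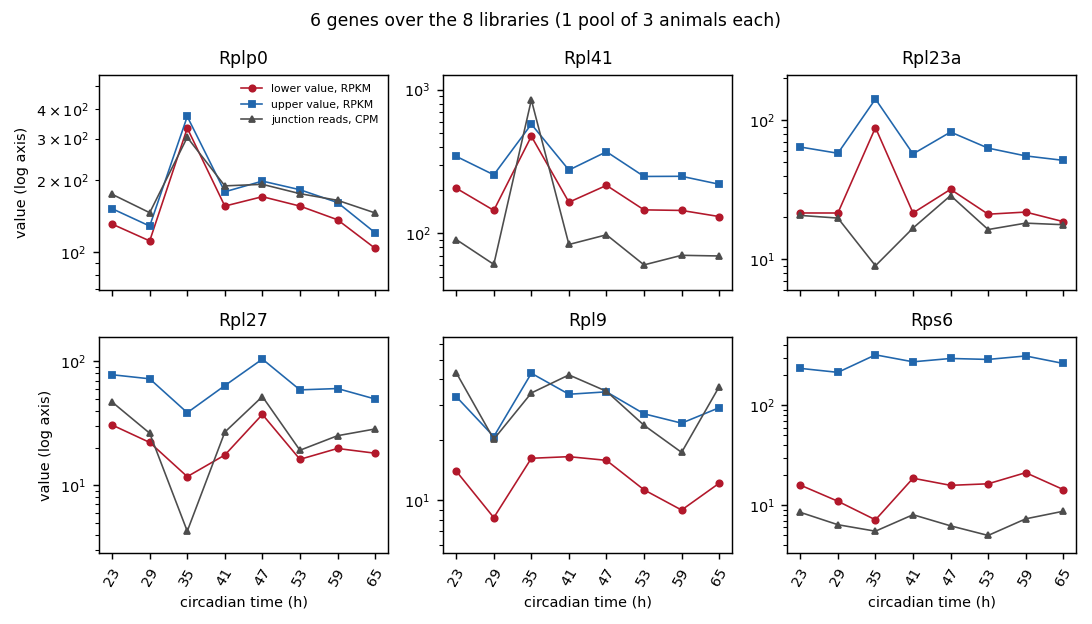
Lower value, upper value (both RPKM) and junction CPM for 6 ribosomal protein genes at the 8 circadian times, 1 library each, on log axes. Rplp0 and Rpl41 are highest at CT35 by all 3 measures, Rpl23a has a high exon and a low junction value there, Rpl27 is low at CT35 by all 3, and Rps6 is low by its lower and high by its upper value.

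Without CT35 the remaining 7 libraries differed less. The median standard deviation over libraries on the log2 scale was 0.37 with CT35 and 0.26 without it, against 0.28 and 0.25 for all genes tested. CT47 was then the highest library for 37 members (background 21.4%), while CT65 was the lowest for 32 (background 26.7%) and CT29 for 31 (background 18.3%). Libraries of the same phase lay apart. The difference between the medians, second minus first day, was 0.35 for the CT23 phase, 0.20 for CT5, -0.65 for CT11 and -0.29 for CT17. CT47 was above CT23 in 69 of 81 members (all genes 63.4%) and CT53 above CT29 in 56 (62.3%), whereas CT59 was above CT35 in 15 (47.5%) and CT65 above CT41 in 12 (38.2%). The steadiest members over all 8 libraries were Rps16 (standard deviation 0.15), Rpl5 (0.17) and Rpl21 (0.19), and the most variable were Rpl18 (0.89), Rpl38 (0.88) and Rpl36al (0.86). Rpl38, a protein known for its part in the translation of Hox mRNAs, had 39.4 in CT23, 101 in CT29, 106 in CT35, 41.4 in CT41, 98.3 in CT47, 28.8 in CT53, 35.2 in CT59 and 23 in CT65 RPKM. It was high in CT29, CT35 and CT47 and low in CT53 and CT65, so that the libraries of 3 phases fell on opposite sides.

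No member passed the test for a 24-h rhythm. The fit was a cosine and a sine of 24 h on log2(RPKM + 0.5), tested with limma, with p-values adjusted (Benjamini-Hochberg) across the 10816 genes. Called were 0 of 81 members and 1.86% of all genes. At an unadjusted p under 0.05 there were 2 members (2.47%) against 15% of genes, and edgeR on the recovered reads called 0 members and 281 genes in all, and DESeq2 1 and 576. Without CT35 limma called 0 members and 272 genes in all, with 2 members at an unadjusted p under 0.05 against 1611 of 10531 genes. The fitted log2 peak-to-trough difference of the members had a median of 0.42, close to the 0.40 of all genes, with standard errors (SE) of 0.21 to 0.67. Above 1 on this scale were 4 members (4.94%, against 7.05% of genes). Errors of this size leave smaller rhythms undetectable here. The spread behind each p is that of 8 pools around a curve, so the spread between animals does not enter it.

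The member closest to a call was Rpl27, a protein of the large subunit (chr11:101303752-101305248, mm9). Its lower values were 30.7 in CT23, 22.2 in CT29, 11.7 in CT35, 17.5 in CT41, 37.3 in CT47, 16.2 in CT53, 19.8 in CT59 and 18.2 in CT65 RPKM. Both libraries of the CT23 phase, CT23 and CT47, were above the other 6, and CT35 was the lowest. The log2 peak to trough was 1.13 (SE 0.31), which is 2.18-fold, with the peak at 23.3 h and a limma adjusted p of 0.167. The adjusted p was 0.0952 with edgeR, 0.244 by the upper value and 0.0219 with DESeq2, which called it. With CT35 left out it was 0.95 on the log2 scale (limma adjusted p = 0.305).

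Next came Rpl10, which joins the 60S subunit late in its assembly (log2 0.67, SE 0.21, peak 22.7 h, limma adjusted p = 0.261). Its lower values were 19.8, 14.1, 11.5, 15.9, 19.9, 16.1, 13.2 and 15.7 RPKM from CT23 to CT65, highest in CT23 and CT47. Rpl19 (0.58, adjusted p = 0.388) and Rps28 (0.68, 0.44) had larger p-values. Rps28 was highest in CT23 at 46.1 RPKM and lowest in CT65 at 21.3. The log2 peak to trough by the upper value was smaller, at 0.24 for Rpl10, 0.35 for Rpl19 and 0.25 for Rps28. The limma adjusted p were then 0.863, 0.777 and 0.90.

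Between the CT23 and CT11 phases 0 of 81 members were called by limma (background 1.44%), with 4 at an unadjusted p under 0.05 against 12.5% of genes. That count moved when single libraries were left out. EdgeR called 0 members and 200 genes in all, and DESeq2 1 and 358. The median log2 difference, CT23 minus CT11, was -0.24 for members and -0.068 for all genes. Positive were 27 members (all genes 41.7%). Without CT35 the members' median turned to 0.19, against -0.024 for all genes. It was -0.14 without CT23, -0.39 without CT47 and -0.37 without CT59, against -0.047, -0.15 and -0.052 for all genes. Rpl27 (1.12, SE 0.31, limma adjusted p = 0.118; DESeq2 0.0127), Rpl10 (0.67, 0.199), Rpl19 (0.55, 0.343) and Rps28 (0.68, 0.355) had positive differences, and Rpl35 a negative one (-1.06, 0.401), which was -0.38 without CT35 (limma adjusted p = 0.906). By the upper value the difference of Rpl19 was -0.35. Those of Rpl10 and Rps28 fell to 0.17 and 0.20, and those of Rpl27 and Rpl35 were 0.90 and -0.58.

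Between the CT5 and CT17 phases 0 members were called by limma (background 0.638%), 1 had an unadjusted p under 0.05 against 12.1% of genes, and edgeR and DESeq2 called 0 members and 102 and 209 genes in all. The median log2 difference, CT5 minus CT17, was 0.035 for members against 0.11 for all genes, and -0.100 against 0.0004 after TMM rescaling. The members' median was -0.23 without CT65, 0.21 without CT29, 0.010 without CT41 and 0.057 without CT53, so its direction rests on single libraries. Rpl9 had a difference of -0.54 (SE 0.31), and Rps20 and Rplp2 had limma adjusted p of 0.656 and 0.669.

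The 12-h component, which sets the CT23 and CT11 phases against CT5 and CT17, was called by limma in 0 of 81 members and in 0% of all genes. Of the members, 10 had an unadjusted p under 0.05 (12.3%, against 8.01% of genes). This count rests on single libraries, and that of all genes moved too. It was 2 without CT35 (480 of 10531 genes), 1 without CT47 (420 of 10735) and 3 without CT65 (593 of 10771). It was 4 without CT29 (637 of 10740) and 37 without CT59 (1869 of 10766). EdgeR called 0 genes, and DESeq2 called 13 genes and 0 members. The median difference was 0.27 for members against 0.072 for all genes, and 0.12 without CT35. Rpl36a (0.54), Rpl13a (0.56), Rpl24 (0.73), Rpl15 (0.47) and Rps19bp1 (0.43) led it, with limma adjusted p of 0.608 to 0.616. Without CT35 the value of Rpl24 was 0.33 and that of Rpl13a 0.34.

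The second day differed from the first in 0 members by limma (background 0%), with 6 members at an unadjusted p under 0.05 against 2.39% of genes. Rps27 and Rps27rt, which hold the same reads, are both among the 6. The count was 0 without CT35 or without CT59, 2 without CT29 or without CT53 and 11 without CT23 or without CT47. Over all genes it was 229 of 10531 without CT35 and 233 of 10766 without CT59. It was 236 of 10740 without CT29, 234 of 10747 without CT53, 554 of 10772 without CT23 and 550 of 10735 without CT47. EdgeR called 0 genes and DESeq2 1, which was no member. The members' median, second minus first day, was -0.11 with CT35 and 0.084 without it. Rpl35 (-0.66, SE 0.25), Rplp1 (-0.67, SE 0.28) and Rps18 (-0.52, SE 0.23) had negative values and Rps27 a positive one (0.62, SE 0.25). Without CT35 the value of Rplp1 was -0.28 and that of Rps27 0.41.

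In junction reads the 24-h component was called by edgeR in 0 of 76 members (background 2.27%), with 4 at an unadjusted p under 0.05 against 14.3% of genes. DESeq2 called 0 members and 389 genes in all. Rpl9, a protein near the base of the stalk, had the smallest p. Its junction CPM values were 43.2 in CT23, 20.2 in CT29, 34.3 in CT35, 42.1 in CT41, 34.9 in CT47, 23.6 in CT53, 17.3 in CT59 and 36.8 in CT65. They were low in CT29, CT53 and CT59 and high in CT23 and CT41. The log2 peak to trough was 1.02 with the peak at 19.3 h (edgeR adjusted p = 0.178), and without CT35 it was 1.38 and called (0.0126). Rpl27 was again highest in CT23 and CT47 and lowest in CT35, with 47, 26.3, 4.26, 26.9, 52.1, 19.2, 25.1 and 28.5 junction CPM from CT23 to CT65 (peak 22.4 h, adjusted p = 0.251), and was called without CT59 (0.0128). Rpl10 had an adjusted p of 0.251. Exons and junctions come from the same libraries and are no independent replicates.

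Intron reads, which stem largely from unspliced RNA, were taken over the introns of the 1 transcript that represents each gene. They could be tested in 55 members. Limma called 1 of these members (background 1.69%), Rps9, a protein of the small-subunit body. Its introns in that transcript (347 bases) had 7.08 in CT23, 5.27 in CT29, 2.14 in CT35, 4.68 in CT41, 6.93 in CT47, 4.63 in CT53, 2.69 in CT59 and 4.98 in CT65 RPKM, from 11 to 32 reads. Whether other Rps9 transcripts have exons in these bases was not tested. CT23 and CT47 were the highest libraries and CT35 and CT59 the lowest. The log2 peak to trough was 1.37 (SE 0.28), with the peak at 23.1 h and an adjusted p of 0.045. The call was lost when any 1 of the 8 libraries was left out (adjusted p 0.0605 to 0.187). The exons of Rps9 did not follow the introns: they were highest in CT35 at 114 RPKM and lowest in CT23 at 54.7, with a 24-h adjusted p of 0.703. Rpl38 (0.60, adjusted p = 0.132) and Rps23rg1 (0.19, 0.299) were next in introns.

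Genes around the ribosome were looked at by list. Of the ribosomal components under other names, Rack1, a scaffold on the small subunit, averaged 99.8 RPKM and was 1.87 times the other libraries in CT35, and Fau averaged 8.63 and was 1.08 times. Neither was called in any comparison. Elongation factors and other TOP mRNAs had CT35 as the highest library in 14 of 19 genes, and their sum was 6662 RPKM there against 3288 to 5225. Eef1a1, the tRNA carrier, made up most of it (mean 3472 RPKM). The same count was 13 of 28 for initiation factors, 11 of 34 for ribosome assembly, 3 of 12 for RNA polymerase I and 7 of 21 for mTOR signalling, beside 28.7% of all genes tested. The counts for assembly, polymerase I and mTOR signalling are near that share. The ratio of CT35 to the other libraries is given for the 2 most abundant genes of each list. It was 1.59 for Eef1a1 and 1.23 for the translocase gene Eef2, and 0.532 for Eif4g1 and 0.88 for Eif4g2 of initiation. In assembly it was 0.621 for Tsr1 and 0.839 for Nop16, and in rRNA transcription 1.7 for Polr1d and 1.14 for Ubtf. In mTOR signalling it was 0.372 for Eif4ebp2 and 1.57 for Eif4ebp3. The 77 genes of the mitochondrial ribosome, which has proteins of its own, had a median deviation of 0.43 in CT35, 0.17 in CT47, -0.15 in CT29 and -0.27 in CT65, against 0.58, 0.21, -0.24 and -0.30 for the members. The difference between the groups was not tested.

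The lists are too short for their counts of calls to be read against the 1.86% of all genes. A 24-h component was called by limma in 0 of 19 elongation and TOP genes, 0 of 28 initiation factors, 0 of 12 polymerase I genes, 0 of 34 assembly genes and 0 of 7 genes of the ribosomal stress response. In the mTOR list 1 of 21 was called, Ddit4, an inhibitor of mTOR complex 1 (log2 1.45, SE 0.26, peak 16.8 h, adjusted p = 0.036). It was higher at CT17 than at CT5 (-1.44, CT5 minus CT17, adjusted p = 0.0283), and of the 8 fits without 1 library 3 kept the first and 5 the second call. Maf1, a repressor of RNA polymerase III, was lower at CT23 than at CT11 (-1.20, adjusted p = 0.0497), a call lost without any 1 library. Mtor (0.371), Larp1 (0.579) and Rps6kb1 (0.299), which encodes the kinase of Rps6, were not called (24-h adjusted p in parentheses). Among the markers of other cell types, Sox9 of bile duct differed between CT23 and CT11 (1.57, adjusted p = 0.0481), and 2 of 8 fits without 1 library kept the call. The other bile duct markers did not share it. Krt19 (0.63, limma adjusted p = 0.606) and Epcam (-0.48, 0.34) were not called and had opposite signs, and Krt7 missed the read minimum.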

How the data were processed

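PolyA RNA of 8 liver libraries was analysed. The authors deposited, per the file headers, a lower and an upper value (min and max) for each transcript, exon and intron; the values behave as RPKM, and their genome build was mm9 (submitters' processing notes). The deposited junction tables hold counts of reads per splice junction, named RUM high-quality junctions, per the file headers. The quantifying program, read length and strand setting are not stated in these sources. Per the labels' protocols, gel slices of 350 to 500 bp were sequenced.

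Lower values lay within 0.1 read of a whole number of reads for at least 99.997% of the transcripts checked, which gave the reads. Checked were transcripts with a positive value, without the most abundant ones. Of 115699 transcripts, 77635 carried a name through RefSeq or Vega identifiers, naming 23907 genes; each was represented by the transcript of largest summed lower value, which for members is a RefSeq mRNA in 42 cases, and in Vega a retained intron in 13 and a processed transcript in 11. Tests were limma 3.58.1 (trend, robust) on log2(RPKM + 0.5) with 24-h terms from CT23 (5 residual degrees of freedom), a 12-h term (4), or the day with the phase as a block (3), and edgeR 4.0.16 quasi-likelihood with TMM for junctions; DESeq2 1.42.0 was an alternative. P-values were adjusted over all genes and an adjusted p under 0.05 is called. Named were called members, the 5 of smallest p per comparison (3 for junctions and introns), the 6 highest and 6 lowest levels, the 6 widest and 3 narrowest gaps, the stalk and the paralog pairs, and per pathway list the called and the most abundant genes; others are named as examples chosen after their values were seen. The members, lists and tests were chosen with earlier results of these data known. Some genes that this rule names are not reported here. The tests were tried on simulated data. Alternatives were other pseudocounts (0.1 and 2 RPKM), no read minimum, TMM or equal medians, the upper value, edgeR or DESeq2 on recovered reads, each library left out and, added after seeing the data, the transcript of most reads and RefSeq mRNAs only.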

Additional observations from a re-analysis of the deposited data

Results flagged for a closer look

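CT35 lay far from the other 7 libraries, by the gap to its nearest neighbour relative to the whole range, in the summed lower value of the ribosomal protein genes (6264 RPKM), in their summed upper value (13077 RPKM) and in their summed junction CPM (6719). Among the genes whose 8 lower values were checked by name, the same held for Rplp0 (332 RPKM), Rplp1 (117), Rpl4 (262) and Rpl41 (474). Over all 81 members tested, 31 had a library this far from the others, in each case CT35 and in each case high, against 8.99% of all genes tested. Chance flags about 1 in 20 groups, and the 8 libraries are 8 times of day rather than replicates of 1 group.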

How the results depend on the processing

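No paired analysis was possible because each time has 1 library, so that no replicate numbers pair the groups; the comparison of days used the phase as a block. The count of members called stayed at 0 for the 24-h component, CT23 against CT11, CT5 against CT17, the 12-h component and the second against the first day under every alternative run, except that DESeq2 called 1 member, Rpl27, for the 24-h component (log2 1.20) and for CT23 against CT11 (1.20). In junction reads the count ran from 0 to 1 when 1 library was left out, with Rpl9 called without CT35 and Rpl27 without CT59. In introns the count of 1 (Rps9) was 0 without a read minimum and 0 without any 1 library. The summed level in CT35 was 1.77 times the median of the others by the lower value, 1.61 times by the upper value and 1.68 times after TMM rescaling. The median gap between the values was 2.38 times, and 2.81 with transcripts chosen by the upper value. The CT23 minus CT11 difference of Rpl19 turned to -0.35 by the upper value; the cause was not tested. With 1 library per time, and 5 or fewer residual degrees of freedom, small rhythms were not detectable.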
